A study of Homo sapiens with 6 samples.

Results

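Messenger RNA of 8 genes of the insulin pathway, IRS1, IRS2, PIK3CA, PIK3R1, AKT1, AKT2, FOXO1 and FOXO3, was followed through knockdown of EWSR1::ATF1 (EA1), the fusion oncogene of clear cell sarcoma. The genes were taken by symbol from a count table of 18118 genes, and all 8 passed the filter on low counts. The cells were SU-CCS-1, an established human clear cell sarcoma line that carries the fusion. In each group 2 RNA-seq libraries were analysed: a scramble control siRNA (siNeg1), and 2 siRNAs against EA1 (siEA1-1 and siEA1-2), each transfected for 48 h. All groups were transfected with siRNA, and all come from this 1 cell line. The sequences of the siRNAs are not given in the sources used here. The study's methods name 1 siRNA against EA1 where the labels name 2, so how siEA1-1 and siEA1-2 differ is not known. The comparisons ask which of these genes change in level when the fusion is reduced, and whether both siRNAs show it.

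In insulin signaling, an activated insulin or insulin-like growth factor receptor phosphorylates the IRS adaptor proteins, which recruit phosphoinositide kinase (PI3K) to the membrane. The lipid made by PI3K brings the kinase AKT to the membrane, where it is activated. AKT then phosphorylates the FOXO transcription factors, which keeps them out of the nucleus, and FOXO factors in the nucleus in turn switch on genes that include those of receptors and adaptors of the same pathway. RNA levels do not show phosphorylation or location of these proteins, so the measurements here are of transcript supply alone.

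Each library held 5942808 to 7599305 counts, and a count of 3, taken as the floor, was worth 0.395 to 0.505 CPM (counts scaled to a common library size, after TMM normalization). Log2 CPM of 2 libraries of a group correlated across genes at r = 0.977 to 0.983. ATF1, the 3′ partner of the fusion, had 549 and 680 counts in the control libraries, 149 and 123 with siEA1-1, and 122 and 159 with siEA1-2. It fell by 2.03 and 1.94 on the log2 scale (edgeR quasi-likelihood test with Benjamini-Hochberg adjustment, adjusted p = 6.7e-07 and 1.05e-06), and reads of the fusion and of the wild-type ATF1 allele were counted together. EWSR1 was not called with either siRNA (adjusted p = 0.45 and 0.789). Of 9 markers of clear cell sarcoma with melanocytic differentiation, 8 rose with each siRNA, and their summed level went from 2769 to 3024 CPM in the control libraries to 7443 to 12040 CPM in the knockdown libraries. Interferon response genes summed to 153 to 175 CPM in the control and 84.4 to 94.4 CPM in the knockdown libraries, with 6 of 7 tested genes lower after averaging the siRNAs. Fibroblast markers, with 2 of 5 in the table, summed to 2.70 and 3.44 CPM in the control libraries and 8.89 to 22.96 CPM in the knockdown libraries, and 1 of these 2, LUM, rose with each siRNA. Immune and epithelial markers, with 1 of 4 each in the table, summed to at most 2.57 CPM, and of 3 adipocyte and 4 muscle markers 0 were matched to a row of the table. Whether these shifts bear on the insulin pathway genes was not tested. In bulk RNA a lower level from fewer cells of a type cannot be told apart from less RNA per cell.

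The 8 genes did not move as a block. IRS1, IRS2 and FOXO3 rose with both siRNAs, by 1.5- to 3.4-fold. PIK3R1 and AKT2 rose by smaller amounts that passed the test with siEA1-2 and in the average of both siRNAs, FOXO1 fell with siEA1-2, and PIK3CA and AKT1 did not pass the test. With siEA1-1, 3 of the 8 genes were called higher and 0 lower, against 40.1% of all 14571 genes tested called in either direction, 19.9% higher and 20.3% lower (adjusted p under 0.05). With siEA1-2, 5 were higher and 1 lower, against 36.7% of all genes called, 18.5% higher and 18.2% lower. Averaged over both siRNAs, 5 were higher and 0 lower (at an unadjusted p under 0.05, 1 was lower, FOXO1), against 43.5% of all genes called, 21.5% higher and 22.1% lower. The median log2 fold change of the 8 genes, knockdown over control, was 0.30 with siEA1-1 and 0.42 with siEA1-2, where the median of all tested genes was 0.02 and 0.00. So large a share of all genes was called that the number of calls among the 8 genes is close to the background with siEA1-1, and the description below rests on the size of each change.

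**Figure D1:**
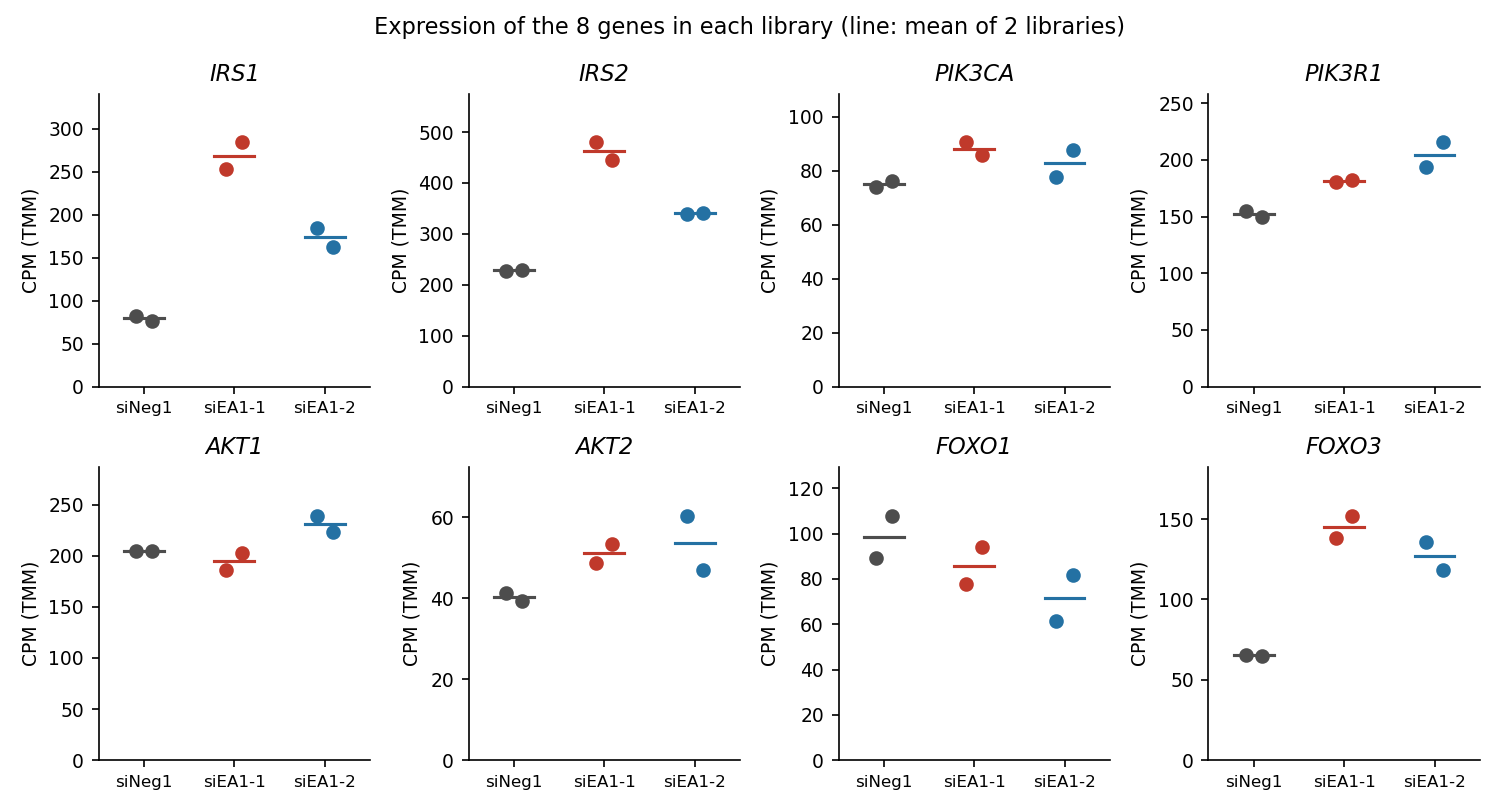
Normalized expression (CPM after TMM scaling, linear axis from 0) of each of the 8 genes in the 2 control libraries (siNeg1, grey) and in the 2 libraries of each EA1 siRNA (red and blue), with a line at the mean of 2 libraries. IRS1, IRS2 and FOXO3 stand well above the control in all 4 knockdown libraries, the AKT1 libraries lie below the control with siEA1-1 and above it with siEA1-2, and FOXO1 is the gene whose siEA1-2 libraries lie below both control libraries.

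IRS1 and IRS2 encode the adaptor proteins that dock PI3K to the activated insulin receptor. IRS1 (ENSG00000169047, hg38 chr2:226731312-226799820, minus strand) had 82.2 and 76.6 CPM in the control libraries, 253 and 284 CPM with siEA1-1, and 185 and 163 CPM with siEA1-2. All 4 knockdown libraries lay above both control libraries, as was true of 28.1% of all tested genes. The siEA1-1 libraries lay above the siEA1-2 libraries, an order of 2 against 2 libraries whose share over all genes was not counted. The log2 fold change was 1.76 ± 0.112 (SE, adjusted p = 7.26e-07) with siEA1-1 and 1.13 ± 0.112 (adjusted p = 1.81e-05) with siEA1-2, the largest changes among the 8 genes with each siRNA. These equal 3.38-fold and 2.19-fold, with 95% intervals of 2.85 to 4.01 and 1.84 to 2.59.

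IRS2 (ENSG00000185950, hg38 chr13:109752695-109786583, minus strand) had 228 and 230 CPM in the control libraries, 480 and 446 CPM with siEA1-1, and 340 and 341 CPM with siEA1-2. The order of the groups was that of IRS1, again with no overlap between any pair of groups. For the siRNA pair the share of all genes without overlap was again not counted. The log2 fold change was 1.02 ± 0.0977 (adjusted p = 1.09e-05) with siEA1-1 and 0.57 ± 0.0975 (adjusted p = 0.000795) with siEA1-2. IRS1 and IRS2 were called higher with each siRNA under every alternative of processing that was run.

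The siRNAs differed from each other at both adaptor genes. The siEA1-1 level was above the siEA1-2 level by 0.63 on the log2 scale at IRS1 (95% interval 0.392 to 0.866, adjusted p = 0.0141) and by 0.44 at IRS2 (0.231 to 0.654, adjusted p = 0.0398). Of the 8 genes only these 2 were called between the siRNAs, against 2.24% of all genes tested. Both calls rest on few libraries: without siEA1-1 replicate 1 the adjusted p was 0.0522 at IRS1 and 0.239 at IRS2, and without siEA1-1 replicate 2 it was 0.208 at each. At IRS2 it was also above the threshold without siNeg1 replicate 1 (0.0901) or siNeg1 replicate 2 (0.0801).

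FOXO3, FOXO1, IRS1 and IRS2 have promoter windows in the RefSeq promoter table (GRCh38.p14), each from 250 bases before to 50 bases after a start site. They are shown 5′ to 3′ on the gene's strand because 3 of these genes rose together and FOXO1, the close relative of FOXO3, did not. ATF1 binds the cyclic AMP response element, TGACGTCA, and its core TGACG on either strand. Capitals mark that core, read on the gene's strand as TGACG or CGTCA. FOXO3 has several windows in the table, and the first, at chr6:108559575-108559874 on the plus strand, is shown. The other windows are at chr2:226799771-226800070 for IRS1, chr13:109786534-109786833 for IRS2 and chr13:40666592-40666891 for FOXO1, all on the minus strand.
IRS1: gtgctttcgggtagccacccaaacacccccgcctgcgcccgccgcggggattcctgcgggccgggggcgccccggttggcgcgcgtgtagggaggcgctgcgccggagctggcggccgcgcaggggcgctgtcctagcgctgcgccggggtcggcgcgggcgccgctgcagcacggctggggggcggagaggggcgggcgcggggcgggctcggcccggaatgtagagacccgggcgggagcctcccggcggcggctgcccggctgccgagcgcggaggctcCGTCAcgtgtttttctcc
IRS2: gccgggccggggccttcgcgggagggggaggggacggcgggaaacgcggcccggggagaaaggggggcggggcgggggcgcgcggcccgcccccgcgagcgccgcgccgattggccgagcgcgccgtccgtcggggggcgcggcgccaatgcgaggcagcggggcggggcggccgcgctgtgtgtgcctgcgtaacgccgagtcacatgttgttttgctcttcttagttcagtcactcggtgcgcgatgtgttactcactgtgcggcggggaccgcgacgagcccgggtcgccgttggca
FOXO3: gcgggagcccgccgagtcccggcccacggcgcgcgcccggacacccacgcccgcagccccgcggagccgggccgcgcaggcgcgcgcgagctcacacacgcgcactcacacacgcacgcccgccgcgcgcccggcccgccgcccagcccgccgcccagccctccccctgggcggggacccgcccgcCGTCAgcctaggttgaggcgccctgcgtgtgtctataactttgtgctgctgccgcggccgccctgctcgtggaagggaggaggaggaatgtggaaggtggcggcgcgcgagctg
FOXO1: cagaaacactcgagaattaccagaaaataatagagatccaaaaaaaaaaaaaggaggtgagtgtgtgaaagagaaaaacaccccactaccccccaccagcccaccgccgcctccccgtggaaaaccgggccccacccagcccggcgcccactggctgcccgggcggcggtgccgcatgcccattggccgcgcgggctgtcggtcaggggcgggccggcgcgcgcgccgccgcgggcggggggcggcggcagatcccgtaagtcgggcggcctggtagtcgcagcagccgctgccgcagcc

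None of the promoter windows of the 8 genes held the full element TGACGTCA, which 1.85% of all 35116 windows in the table held on either strand. The core TGACG occurred at IRS1, 32 bases after the start site, at FOXO3, 64 bases before it, at AKT2, 99 bases before it, and in a window of AKT1, 42 bases after it. Of all windows 24.6% held it. PIK3R1, AKT1, AKT2 and FOXO3 have more than a single window each, so the number of genes with the core cannot be set against that share. Among the genes that rose it was absent from the windows of IRS2 and PIK3R1, and AKT1, which has it, did not pass the test. The AP1 element TGAGTCA, present in 4.95% of windows, occurred in another FOXO3 window, and the FOXO element TGTTTAC, present in 3.42%, occurred at PIK3CA, 149 bases before the start site. After the letters had been read, the E-box sequences CACGTG and CACATG were added: IRS1 held CACGTG 35 bases after the start site, next to its TGACG core and sharing the letters CA with it, and IRS2 held CACATG 47 bases before it. Of all windows 7.26% held CACGTG and 11.1% held CACATG. These are letter matches only, and binding was not measured in these libraries.

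**Figure D2:**
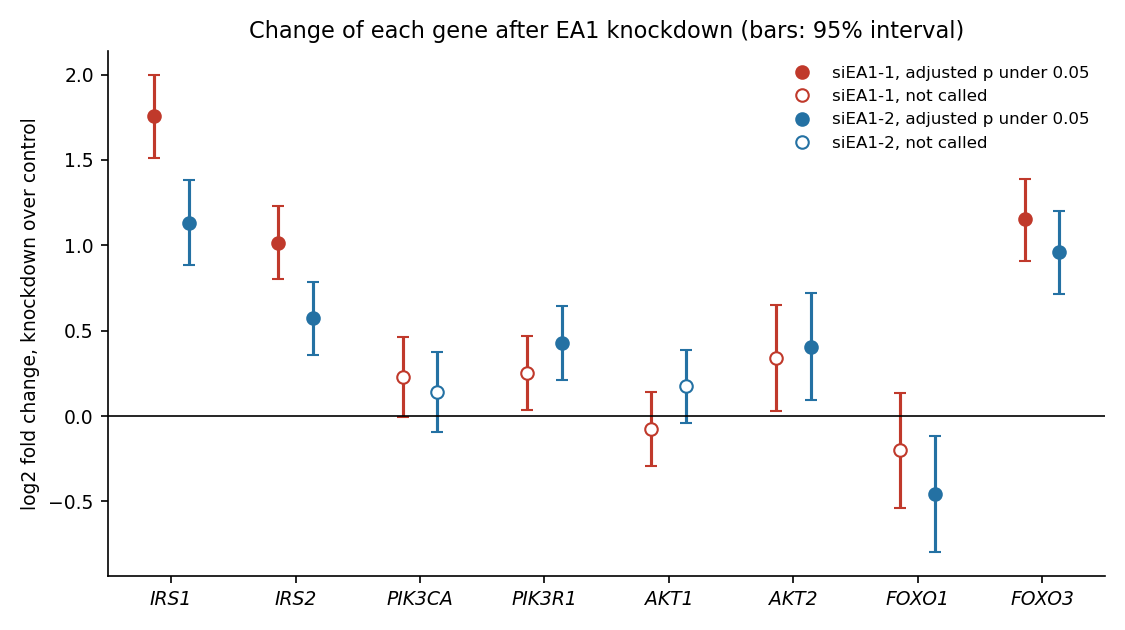
Log2 fold change of each gene, knockdown over control, with siEA1-1 (red) and siEA1-2 (blue). Bars are 95% intervals from the edgeR fit of 6 libraries, and filled points passed an adjusted p of 0.05. IRS1, IRS2 and FOXO3 have intervals that start at 0.36 or higher with both siRNAs, whereas those of PIK3CA and AKT1 include 0. Both sets of points share the 2 control libraries.

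PIK3CA and PIK3R1 encode a catalytic and a regulatory subunit of class I PI3K, which bind each other. PIK3R1 (ENSG00000145675, hg38 chr5:68215740-68301821, plus strand) had 155 and 149 CPM in the control libraries, 181 and 182 CPM with siEA1-1, and 194 and 216 CPM with siEA1-2. All 4 knockdown libraries lay above both control libraries, as for 28.1% of all tested genes. The log2 fold change of 0.43 with siEA1-2 passed the test (adjusted p = 0.00556) and that of 0.25 with siEA1-1 did not (adjusted p = 0.0638), but the siRNAs were not shown to differ (adjusted p = 0.41). Averaged over the siRNAs PIK3R1 rose by 0.34 ± 0.087 on the log2 scale (adjusted p = 0.00775). Without siNeg1 replicate 2 the averaged change was 0.28 and that with siEA1-2 was 0.36, and neither call was kept. With the replicate number as a block the siEA1-1 change passed as well (adjusted p = 0.0459).

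PIK3CA (ENSG00000121879, hg38 chr3:179148114-179240093, plus strand) had 73.9 and 76.2 CPM in the control libraries, 90.4 and 85.6 CPM with siEA1-1, and 77.8 and 87.5 CPM with siEA1-2. All 4 knockdown libraries lay above both control libraries, an order that 28.1% of all tested genes had. The libraries of the siRNAs overlapped with each other. With siEA1-2 the difference between the means was close to the spread of its libraries (82.6 ± 6.84 CPM, SD, n = 2). Averaged over the siRNAs the log2 fold change was 0.18 ± 0.093 (adjusted p = 0.131), with a 95% interval of 0.987- to 1.31-fold. Reads from KCNMB3, which overlaps PIK3CA exons on the opposite strand, could enter its count if strand was not used. KCNMB3 had 7 to 19 counts and PIK3CA 437 to 636, which does not show how many reads lie in the shared exons. Exons of IRS2 and AKT1 also overlap opposite-strand gene models, ENSG00000275741 and ENSG00000258430, without counts here. The effect of these overlaps was not tested.

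AKT1 and AKT2 encode 2 forms of the kinase that acts between PI3K and FOXO. AKT1 (ENSG00000142208, hg38 chr14:104769349-104795751, minus strand) had 205 CPM in each control library, 186 and 203 CPM with siEA1-1, and 239 and 223 CPM with siEA1-2. The siEA1-1 libraries lay below the control and the siEA1-2 libraries above it. Neither difference passed the test (log2 fold change −0.08, adjusted p = 0.581, and 0.17, adjusted p = 0.192), and neither did that between the siRNAs (adjusted p = 0.222). The 95% interval of the averaged change was 0.909- to 1.18-fold.

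AKT2 (ENSG00000105221, hg38 chr19:40230317-40285536, minus strand) had 41.3 and 39.3 CPM in the control libraries, 48.8 and 53.4 CPM with siEA1-1, and 60.3 and 46.9 CPM with siEA1-2. It is the gene of the 8 with the fewest counts, 276 to 343 per library. All knockdown libraries were above both control libraries, as in 28.1% of all tested genes. The averaged log2 fold change was 0.37 ± 0.124 (adjusted p = 0.0295). The siEA1-2 change of 0.41 was called (adjusted p = 0.0429) and the siEA1-1 change of 0.34 was not (adjusted p = 0.0778). These calls are near the threshold: DESeq2 gave an adjusted p of 0.103 for the average and 0.135 for siEA1-2, and the averaged call was lost without siNeg1 replicate 1 (0.096), siNeg1 replicate 2 (0.207), siEA1-1 replicate 2 (0.112) or siEA1-2 replicate 1 (0.0908). The siEA1-2 call was lost without siNeg1 replicate 1 (0.109), siNeg1 replicate 2 (0.219), siEA1-1 replicate 1 (0.0634) or siEA1-1 replicate 2 (0.0826), and without siEA1-2 replicate 1 its value was 0.20 on the log2 scale (adjusted p = 0.375).

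FOXO1 and FOXO3 encode transcription factors that AKT holds out of the nucleus. FOXO3 (ENSG00000118689, hg38 chr6:108559835-108684774, plus strand) had 65.7 and 64.8 CPM in the control libraries, 138 and 152 CPM with siEA1-1, and 136 and 118 CPM with siEA1-2. Every knockdown library lay above both control libraries, as was so for 28.1% of all tested genes. The log2 fold change was 1.15 ± 0.11 with siEA1-1 (adjusted p = 1.05e-05) and 0.96 ± 0.111 with siEA1-2 (adjusted p = 5.09e-05), equal to 1.88- to 2.63-fold and 1.64- to 2.3-fold as 95% intervals. The difference between the siRNAs did not pass the test (0.19 on the log2 scale, adjusted p = 0.402). FOXO3 was called with each siRNA under every alternative run. FOXO3B, a near-identical copy whose reads may be shared with FOXO3, had 16 to 39 counts where FOXO3 had 439 to 972.

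FOXO1 (ENSG00000150907, hg38 chr13:40555667-40666641, minus strand) went the other way. It had 89.1 and 108 CPM in the control libraries, 77.6 and 94.0 CPM with siEA1-1, and 61.2 and 81.8 CPM with siEA1-2. Libraries of each group were far apart, and 1 siEA1-1 library lay between the control libraries. With siEA1-2 FOXO1 fell by 0.46 ± 0.154 on the log2 scale (adjusted p = 0.0372). With siEA1-1 the log2 fold change was −0.20 (adjusted p = 0.325), and the averaged value of −0.33 missed the threshold (adjusted p = 0.0622). The siEA1-2 call was lost without siNeg1 replicate 2 (−0.34, adjusted p = 0.211) or siEA1-2 replicate 1 (−0.29, adjusted p = 0.156), while the averaged value passed without siEA1-1 replicate 2 (−0.42, adjusted p = 0.0406) or siEA1-2 replicate 2 (−0.47, adjusted p = 0.0024). FOXO1 was lower with each siRNA than in the control library of the same replicate number, and with the replicate number as a block the averaged value passed (−0.33, adjusted p = 0.00599), although what a shared number marks is not stated. ENSG00000288542, an overlapping gene model on the same strand, had 0 to 12 counts against 344 to 839 for FOXO1.

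Levels were compared between genes per kilobase of exon, with all exons of a gene in the GENCODE 44 annotation merged. This merged length can exceed that of the transcript expressed, so the order between genes depends on it. In the control libraries IRS2 was highest, at 28.1 ± 0.144 CPM per kb (SD, n = 2), followed by AKT1 at 18.7 ± 0.0325, FOXO1 at 16.5 ± 2.23, PIK3R1 at 9.33 ± 0.264, FOXO3 at 8.51 ± 0.0837, IRS1 at 7.93 ± 0.391, PIK3CA at 4.37 ± 0.0947 and AKT2 at 2.54 ± 0.0875 CPM per kb. AKT1 and FOXO1 differed by less than the spread of FOXO1, although no neighbours in this order, these included, had overlapping libraries. With siEA1-1 IRS1 stood in the second place at 26.8 ± 2.16 CPM per kb, behind IRS2 at 56.7 ± 2.94, and FOXO3 at 18.9 ± 1.27 overlapped with AKT1 at 17.8 ± 1.05. With siEA1-2 IRS1, at 17.3 ± 1.56, and FOXO3, at 16.6 ± 1.59 CPM per kb, overlapped, as did PIK3R1 at 12.5 ± 0.93 and FOXO1 at 12.01 ± 2.45. The IRS and FOXO transcripts consist of a few large exons, 2 to 5 exon blocks per gene, and the PI3K and AKT genes of 10 to 26 blocks, so an aligner that does not model splicing may count them unequally, and the effect on this order was not tested.

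**Figure D3:**
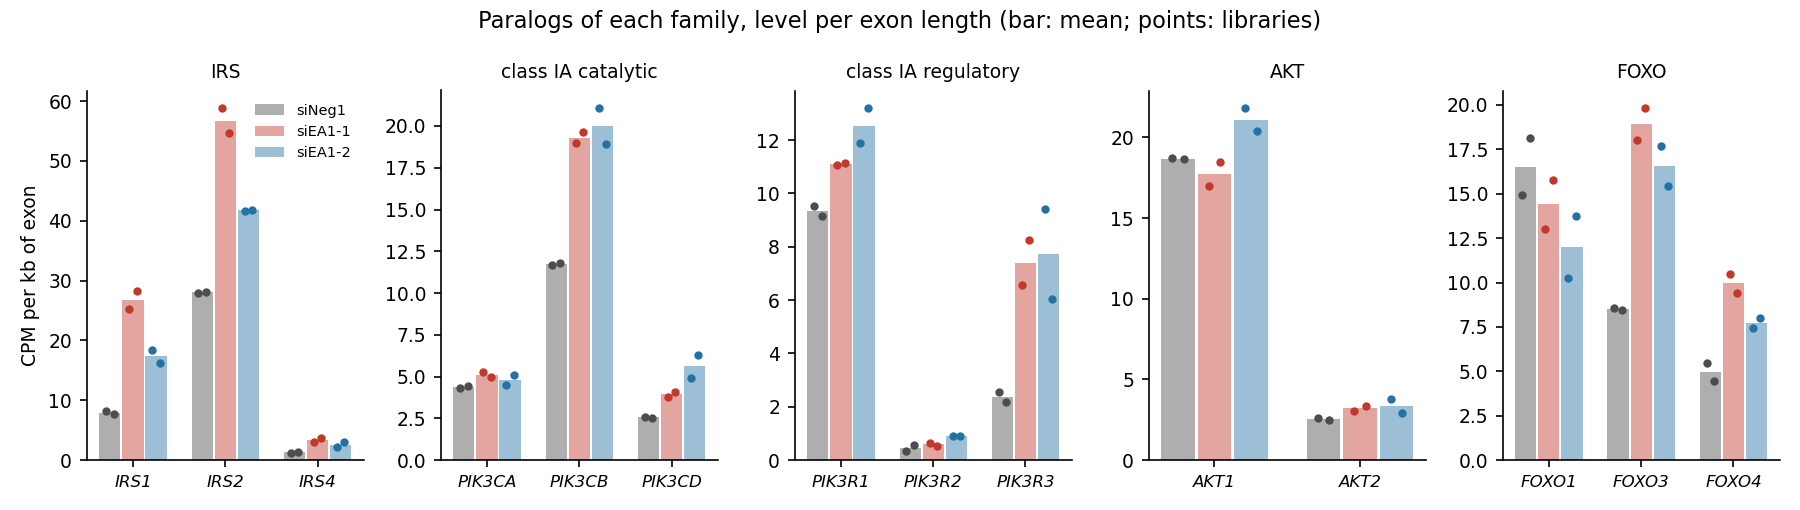
Expression per kilobase of exon (CPM per kb, linear axes from 0) of genes of each family in the 3 groups, with bars at the mean of 2 libraries and points for each library. IRS2, PIK3CB and PIK3R1 are the highest of the genes in their panels in every group, AKT1 is above AKT2, and in the FOXO family FOXO3 passes FOXO1 in the knockdown groups.

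Read against their relatives, the 8 genes fell into families of differing balance. FOXO1 made up 51.5% and 58.4% of the summed FOXO1, FOXO3 and FOXO4 level per exon length in the control libraries, and 29.0 to 37.0% in the 4 knockdown libraries. FOXO3 went from 29.5% and 27.3% to 41.5 to 49.98%, and the family sum from 29.0 and 31.0 to 35.4 to 45.03 CPM per kb. IRS2 remained the main IRS transcript at 63.1 to 75.8% in every library, while IRS1 went from 21.95% and 20.6% to 26.6 to 32.7%. Among the catalytic subunits PIK3CA made up 23.2% and 23.6% in the control and 14.8 to 18.8% in the knockdown libraries, with PIK3CB at 62.5 to 69.0% in all. PIK3R1 went from 76.5% and 76.9% of the regulatory subunits to 53.6 to 65.4%, and PIK3R3 from 20.7% and 18.3% to 30.0 to 42.4%. These shares depend on the merged exon length, which was 17189 bases for PIK3CA. Without division by length, the control libraries had 73.9 and 76.2 CPM of PIK3CA and 91.5 and 92.7 CPM of PIK3CB. Shares within a family depend on each other, so these are descriptions without a test.

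Ratios within a library do not depend on scaling between libraries. The ratio of FOXO1 to FOXO3 per exon length was 1.74 and 2.14 in the control libraries, 0.723 and 0.797 with siEA1-1, and 0.581 and 0.890 with siEA1-2. FOXO1 was thus above FOXO3 in both control libraries and below it in all 4 knockdown libraries, with a change of −1.39 in the log2 ratio against a pooled replicate SD of 0.285. An exact two-sided permutation test over the libraries gave p = 0.0667, the smallest value that its 15 arrangements allow, and 0.0889 after Benjamini-Hochberg adjustment over 4 ratios. The log2 ratio of IRS1 to IRS2 went from −1.82 to −1.18, a change of 0.65 (SD 0.143), and that of AKT1 to AKT2 from 2.88 to 2.56, a change of −0.32 (SD 0.112). Each reached the same exact permutation p of 0.0667 (adjusted 0.0889). The log2 ratio of PIK3CA to PIK3R1 changed by −0.16 (SD 0.0566) with overlapping libraries (exact permutation p = 0.2), and by −0.02 with siEA1-1 and −0.29 with siEA1-2 taken alone. With 2 against 4 libraries, no exact permutation p under the usual threshold is possible for these ratios.

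**Figure D4:**
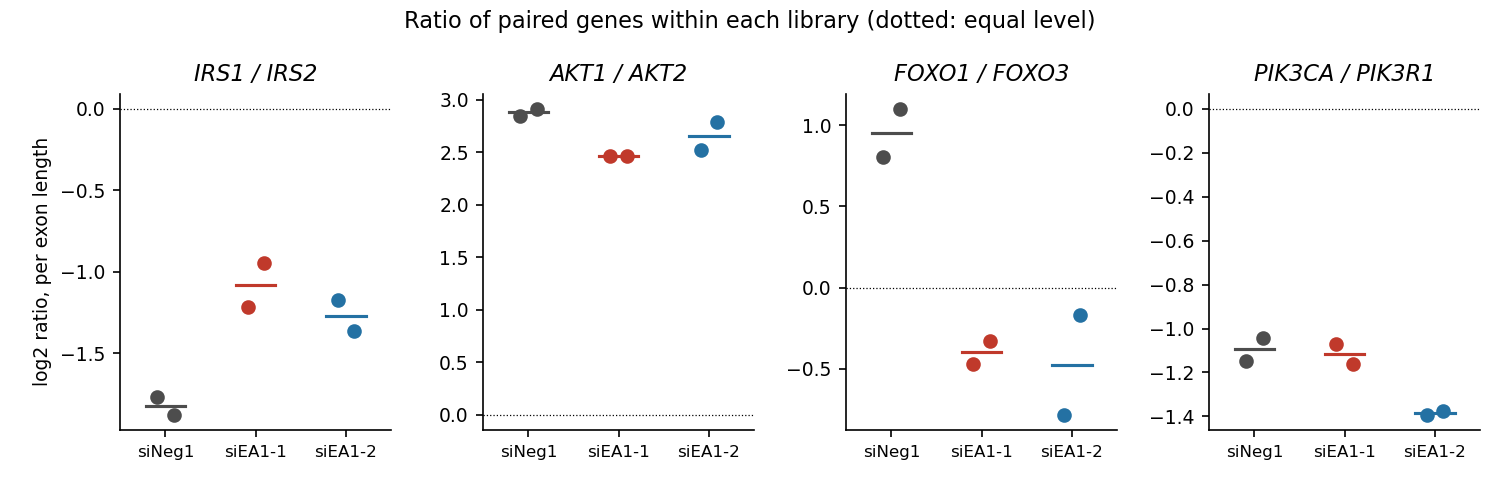
Log2 ratio, per exon length, of 4 gene pairs within each library, with a line at the mean of each group and a dotted line where both genes are equal. The ratio of FOXO1 to FOXO3 lies above 0 in both control libraries and below 0 in all 4 knockdown libraries, and the ratio of IRS1 to IRS2 stays below 0 in all libraries.

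The genes with a profile most like that of IRS1 over the 6 libraries were BAIAP2-DT, CDK18 and ENSG00000279360, which carries no symbol in the table. Their Euclidean distances to IRS1 in mean-centred log2 CPM were 0.182, 0.186 and 0.187. CDK18, a cyclin-dependent kinase family member, had 15.7 and 13.9 CPM in the control libraries, 45.2 and 54.5 CPM with siEA1-1, and 38.6 and 32.6 CPM with siEA1-2. BAIAP2-DT, a divergent transcript, went from 5.24 and 5.01 CPM to 16.2 and 16.5 CPM and to 12.3 and 10.5 CPM. ENSG00000279360 was under 2 CPM in every library and, at 0.299 and 0.257 CPM, below the floor in the control libraries. Its log2 fold changes of 2.65 with siEA1-1 and 1.93 with siEA1-2 were larger than those of IRS1. The distances used log2 CPM with a prior count of 2, which shrinks changes at low counts. The distance of ENSG00000279360 is therefore smaller than its fold changes alone would give.

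The other genes of the pathway were grouped into 11 lists by role, with 138 genes, of which 120 were in the table and 118 passed the filter. Averaged over both siRNAs 51 rose and 27 fell, 66.1% of those tested, where 43.5% of all genes were called (21.5% higher, 22.1% lower). With siEA1-1 60.2% and with siEA1-2 59.3% of the list genes were called. The counts by role below are for the average and stand against these shares of all genes, to which some lists are close. The median log2 fold change over the lists was 0.21 for the average, against 0.01 for all genes tested. The lists were chosen by knowledge of the pathway with earlier results of these data known, so the shares are descriptions. In the named examples that follow, log2 fold changes are averages over both siRNAs (± SE), and each gene was called with each siRNA and had both control libraries on one side of all 4 knockdown libraries, as 28.1% of all tested genes had with the knockdown higher and 27.3% with the knockdown lower.

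Upstream of the IRS adaptors, 3 of 7 tested receptors and ligands rose and 3 fell. INSR, the insulin receptor, rose by 0.35 ± 0.0882 on the log2 scale (adjusted p = 0.00658), from 71.4 ± 2.8 CPM to 89.0 ± 0.82 CPM with siEA1-1 and 93.8 ± 2.25 CPM with siEA1-2 (SD, n = 2). IGF2R, a receptor that clears insulin-like growth factor, fell by 0.53 (adjusted p = 0.00159), and IGFBP4, which binds the growth factor outside the cell, fell by 1.18 (adjusted p = 0.00109). IGF1R, the insulin-like growth factor receptor, was added after its values were seen because it depended on the siRNA. It fell by 0.69 on the log2 scale with siEA1-2 (adjusted p = 0.000522), had a log2 fold change of −0.10 with siEA1-1 (adjusted p = 0.512), and differed between the siRNAs (adjusted p = 0.0204).

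Of 14 other receptor adaptors 6 rose and 1 fell. IRS4, the remaining IRS family member measured, rose by 1.19 ± 0.162 (adjusted p = 0.00011), from 21.3 ± 1.82 CPM to 56.1 ± 7.32 CPM with siEA1-1 and 42.6 ± 10.1 CPM with siEA1-2. GAB1, a docking protein related to the IRS proteins in function, rose by 1.00 (adjusted p = 3.68e-05) and CRK, an adaptor that binds phosphorylated docking proteins, by 0.85 (adjusted p = 0.000219). Among 9 inhibitors that act on the receptor or the adaptors, 5 rose and 1 fell. SOCS6 rose by 1.14 (adjusted p = 1.63e-05) and GRB10, which binds and inhibits the insulin receptor, by 0.90 (adjusted p = 3.03e-05). GRB10 also differed between the siRNAs, with log2 fold changes of 1.24 and 0.56 (adjusted p of the difference = 0.0118). SOCS3, a suppressor of cytokine signaling that also targets IRS proteins, fell by 1.77 ± 0.233 (adjusted p = 8.65e-05), from 168 and 121 counts in the control to 27 to 50 counts in the knockdown libraries.

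Of the 4 other class I PI3K subunits tested, 3 rose and 0 fell, in contrast to PIK3CA, which was not called. PIK3R3, a regulatory subunit, rose by 1.67 ± 0.194 (adjusted p = 3.44e-05), from 17.5 ± 2.08 CPM to 54.8 ± 8.91 CPM and 57.2 ± 17.5 CPM. The catalytic subunits PIK3CD and PIK3CB rose by 0.87 (adjusted p = 0.000306) and 0.74 (adjusted p = 4.66e-05). Whether their changes differ from that of PIK3CA was not tested. Of 16 genes listed as inhibitors of PI3K and AKT, 9 rose and 3 fell. The list takes in TRIB1, TRIB2 and TRIB3 as a family, and whether each of them inhibits AKT in these cells was not tested. TRIB1, a pseudokinase of the Tribbles family, rose by 2.83 ± 0.162 (adjusted p = 1.94e-07), from 422 and 456 counts to 2318 to 3321 counts. TRIB3, a relative reported to bind AKT, fell by 2.15 (adjusted p = 1.97e-05). PIK3IP1, which binds the PI3K catalytic subunit and restrains it, had 4 and 1 counts in the control libraries, 56 and 41 with siEA1-1, and 21 and 24 with siEA1-2, too few in the control for a firm fold.

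Among 6 tested kinase genes and partners that activate AKT, 3 rose and 0 fell. MAPKAP1 and RICTOR, subunits of the mTORC2 kinase complex that phosphorylates AKT, rose by 0.77 (adjusted p = 3.26e-05) and 0.33 (adjusted p = 0.02). Of 10 AKT substrates 2 rose and 2 fell, near the shares of 21.5% and 22.1% over all genes. PFKFB2, which makes an activator of glycolysis, rose by 1.02 (adjusted p = 1.04e-05), TSC2, the brake on RHEB, by 0.32 (adjusted p = 0.0116), and MDM2, the ubiquitin ligase of p53, fell by 0.79 (adjusted p = 0.000199). In the mTORC1 arm 3 of 12 genes rose and 5 fell. RHEB, the small GTPase that activates mTORC1, fell by 1.00 ± 0.0809 (adjusted p = 2.26e-06) and EIF4E, the cap-binding translation factor, by 0.63 (adjusted p = 0.000232), while TBC1D7, a subunit of the TSC complex that restrains RHEB, rose by 1.48 (adjusted p = 2.75e-05).

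**Figure D5:**
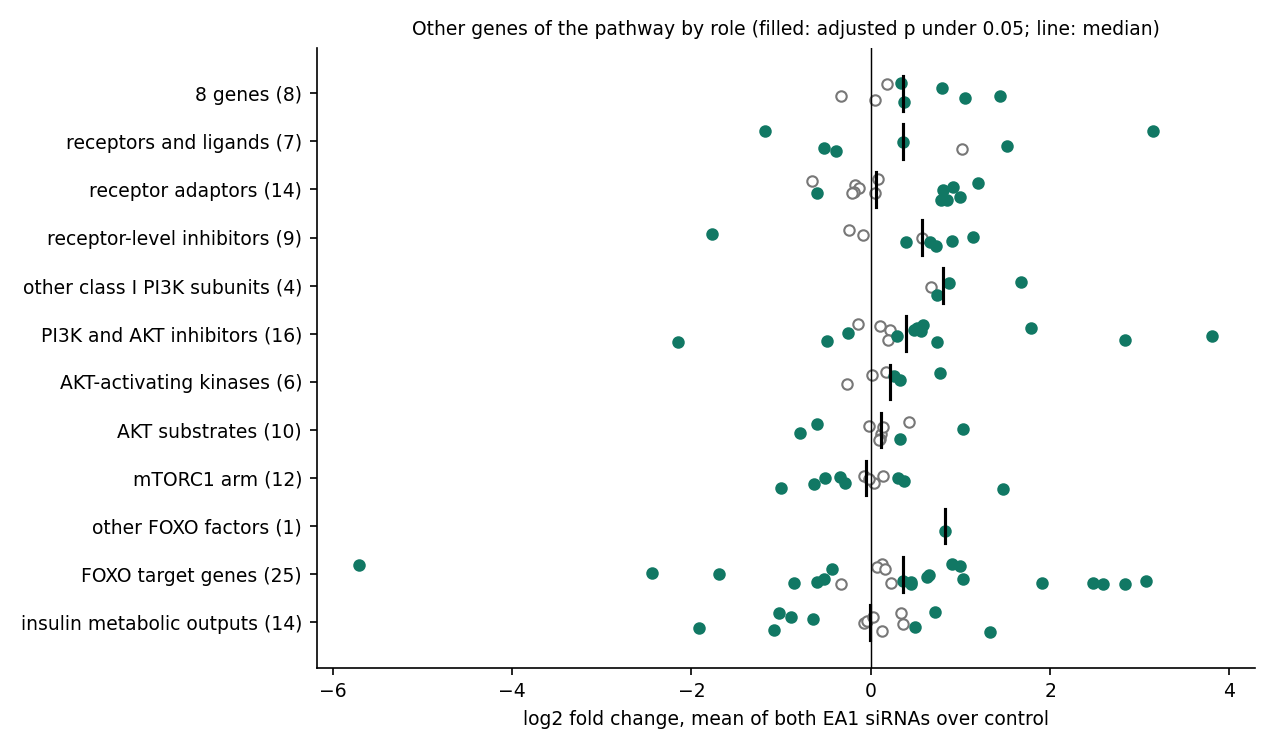
Log2 fold change, averaged over both EA1 siRNAs and relative to control, of the 8 genes and of the other pathway genes by role, with the number of tested genes in brackets. Filled points passed an adjusted p of 0.05 and the vertical line is each list's median. Most lists hold genes on both sides of 0, whereas the called genes among other PI3K subunits and among AKT-activating kinases all lie above 0.

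FOXO4, the FOXO relative that was tested, rose by 0.82 ± 0.146 (adjusted p = 0.000775), from 18.8 ± 2.8 CPM to 37.7 ± 2.79 CPM with siEA1-1 and 29.2 ± 1.55 CPM with siEA1-2. Of 25 tested genes known as FOXO targets 13 rose, 7 fell and 5 were not called, with a median log2 fold change of 0.36. Over all genes 21.5% were called higher and 22.1% lower. CCNG2, an atypical cyclin linked to cell cycle arrest, rose by 2.84 ± 0.139 (adjusted p = 6.69e-08), from 62 and 75 counts in the control to 606 and 491 with siEA1-1 and 338 and 359 with siEA1-2, and it differed between the siRNAs (adjusted p = 0.0328). PDK4, which inhibits pyruvate dehydrogenase, went from 2 and 5 counts in the control to 41 and 36 counts with siEA1-1 and 15 and 23 counts with siEA1-2. PCK1, an enzyme of gluconeogenesis, went the opposite way, from 162 and 153 counts to 2 and 0 counts with siEA1-1 and 6 and 7 counts with siEA1-2. FOXO targets were thus found on both sides of 0.

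Among 14 tested genes of the metabolic outputs of insulin 3 rose and 5 fell. PPP1R3C, a subunit that directs a phosphatase to glycogen, fell by 1.92 ± 0.095 (adjusted p = 7.48e-08), from 195 ± 9.03 CPM to 56.3 ± 6.58 CPM with siEA1-1 and 47.1 ± 3.9 CPM with siEA1-2. HK2, a hexokinase of the first step of glycolysis, fell by 1.08 (adjusted p = 9.04e-06). ACACB, an acetyl-CoA carboxylase, rose by 1.33 (adjusted p = 9.25e-06), from 31.3 ± 3.79 CPM to 81.7 ± 9.999 CPM and 76.1 ± 9.49 CPM.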

How the data were processed

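The 6 RNA-seq libraries of SU-CCS-1 were analysed, with groups and replicate numbers from the sample labels, which do not name separate cultures, so p-values measure the spread between these samples, which may be technical. Libraries were made with a stranded mRNA kit. The authors used BWA-MEM, an aligner without a splicing model, on hg38, obtained counts per gene with featureCounts 1.6.3, and deposited those raw counts for each library. The annotation and use of strand are not given in the sources used here. Of 18118 gene identifiers 18063 were found in GENCODE 44, which gave positions and exon lengths.

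The deposited counts were filtered by group with filterByExpr (minimum count 10, total 15), leaving 14571 genes. They were scaled by TMM and fitted in one quasi-likelihood model of all 6 libraries (edgeR 4.0.16, R 4.3.3), with a common coefficient of variation of 0.109. Genes with a Benjamini-Hochberg adjusted p under 0.05, over all genes tested, were called. Intervals are 95%, and a prior count of 2 entered log2 CPM. The script was tested on simulated data. The alternatives were no filter and a stricter one, other normalizations, DESeq2 1.42.0, a replicate block, only the 4 libraries compared, and leaving out each library. Ratios of gene pairs were tested by exact permutation.

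The 8 genes, the pathway lists and the markers were chosen with earlier results of these data known. Of each list up to 3 genes are named, those with the largest averaged change among genes called with each siRNA and without overlap between control and knockdown libraries. For the gene with the largest averaged change, IRS1, the 3 nearest profiles are named.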

Additional observations from a re-analysis of the deposited data

Results flagged for a closer look

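Of the 8 genes, IRS1 and IRS2 differed between the siRNAs by the test of the difference itself. The siEA1-1 libraries exceeded the siEA1-2 libraries by 0.63 on the log2 scale at IRS1 (edgeR quasi-likelihood test, adjusted p = 0.0141) and by 0.44 at IRS2 (adjusted p = 0.0398). With only the 4 libraries compared, IRS1 kept the call (adjusted p = 0.0327) and IRS2 lost it (adjusted p = 0.0816). Both calls also depended on single libraries, as given above. ATF1, with reads of the fusion and the wild-type allele counted together, was not called between the siRNAs in the fit of all 6 libraries. Its log2 difference was −0.09 (95% interval −0.393 to 0.218, edgeR quasi-likelihood test, adjusted p = 0.817). Whether both siRNAs reduced the fusion equally was not tested, and neither was the cause of the differences at IRS1 and IRS2.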

How the results depend on the processing

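Over all alternatives, 374 of 408 log2 fold changes of the 8 genes kept direction and side of the threshold, 23 lost the call, 9 gained it and 2 changed sign. Counts of calls in the pathway lists stayed within 1.5 times in 247 of 264 cases. With siEA1-1, 5 of the 8 genes were called under upper quartile normalization and 5 with only the 4 libraries compared. Between the siRNAs, 1 of the 8 genes was called with only the 4 libraries compared, and 176 genes in all. Leaving out each library in turn gave 3 to 6 called of the 8 genes with siEA1-2, 3 to 6 for the average, 0 to 2 between the siRNAs, and 33 to 788 genes in all between the siRNAs. Of all calls between the siRNAs 35.6% were higher with siEA1-1 under TMM and 47.6% under upper quartile normalization. The averaged log2 fold change of AKT1 was 0.00 without siEA1-1 replicate 2 (−0.004033), and ranged up to 0.081 over the left-out libraries. AKT2 between the siRNAs was 0.12 without siEA1-2 replicate 1 and −0.07 as reported, ranging from −0.23 to 0.12. The log2 ratio of PIK3CA to PIK3R1 ranged from −0.22 to −0.11 over the left-out libraries, and was −0.022 with siEA1-1 only and −0.29 with siEA1-2 only. The cause of these shifts was not tested.

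Replicate numbers are shared by the groups, and what they mark is not stated. Deviations from the group means correlated at 0.13, 0.199 and 0.144 between groups, from 2 libraries per group. With a replicate block 853 genes differed between the siRNAs (326 without), FOXO1 passed for the average (−0.33, adjusted p = 0.00599), PIK3R1 passed with siEA1-1 (0.25, adjusted p = 0.0459), and no other call among the 8 genes changed. With 2 libraries per group, log2 changes of the 8 genes carried standard errors of about 0.1, which limits what small differences can show.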
